A study of Mus musculus with 4 samples.

Results

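Cholesterol genes were followed in epididymal adipose tissue, a visceral fat depot of male mice, in wild type animals and in animals without CD1d. The set was chosen by name from the pathway, with earlier results of these data known. It comprised 29 genes of cholesterol synthesis, its control, uptake, transport and efflux. Of these, 26 had a probe set that the platform annotation maps to a single gene symbol, out of 18820 such genes, and where a gene had several probe sets the brightest on average was used. All 26 passed the filter on low signal, as did 11292 genes of the whole series. The RNA levels of Acat2, Soat1 and Nr1h2 were not analysed here.

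The 4 arrays comprised 1 from wild type mice on low-fat food (10 kcal% fat), here WT-LF, 1 from wild type mice on high-fat food (45 kcal% fat), here WT-HF, and 2 from CD1d-null mice (CD1d-/-) on the low-fat food, here KO-1 and KO-2. CD1d displays lipids to natural killer T (NKT) cells, and the subset restricted by it does not develop in the null animals; the series asks what these cells do in the fat of lean mice. The strain was C57BL/6, with the null allele backcrossed for 10 to 12 generations, and each diet was started at age 10 to 11 weeks and fed for 18 to 19 weeks. Each array was hybridised with RNA pooled from 4 to 6 mice, from an input of 100 ng. The wild type groups have 1 array each and thus no replicate. Whether KO-1 and KO-2 came from separate pools is not stated in the labels, so the spread on which p-values rest may be technical. A high-fat KO group was not analysed here.

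Cells make cholesterol from acetyl-CoA through the mevalonate pathway, which leads to squalene, and then close and trim the sterol rings in a series of further steps. When the sterol content of the endoplasmic reticulum falls, the carrier Scap moves the transcription factor SREBP-2 (gene Srebf2) to the Golgi, where it is cut and set free to switch on the synthesis genes. Insig proteins hold Scap back when sterols are plentiful, and Insig1 is itself a classical SREBP target. Surplus sterol, as oxysterol, activates the LXR receptors, which raise the exporters Abca1 and Abcg1. Adipocytes store a large pool of free cholesterol beside their triglyceride, and macrophages in the tissue take up and export cholesterol as well.

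SREBP binds promoters next to NF-Y and Sp1, so the promoters of 6 members are printed to show which of these letters they carry. The set takes Lss, Hsd17b7, Dhcr7 and Insig1, at least 1.5-fold higher in both pairs of arrays described below, Hmgcs1 as the only member whose window holds a full SREBP site, and Insig2 as the control gene that differed in the opposite direction. Windows run from 250 bases before to 50 bases after the gene's start, from RefSeq on build GRCm38.p6, written 5′ to 3′ on the gene's strand. They are the first-listed windows, at chr13:119690101-119690400 (+) for Hmgcs1, chr10:76531355-76531654 (+) for Lss, chr1:169969156-169969455 (−) for Hsd17b7, chr7:143822917-143823216 (+) for Dhcr7, chr5:28071162-28071461 (+) for Insig1 and chr1:121332540-121332839 (−) for Insig2. Capitals mark matches on either strand to the SREBP site TCACNCCAC or its core CACNCCAC, to the NF-Y box CCAAT and to the E-box CACGTG, which SREBP can also bind. A match on the reverse strand reads as its reverse complement, so that an NF-Y box there appears as ATTGG. Sp1 boxes (GGGCGG) were counted but are not in capitals.
Hmgcs1: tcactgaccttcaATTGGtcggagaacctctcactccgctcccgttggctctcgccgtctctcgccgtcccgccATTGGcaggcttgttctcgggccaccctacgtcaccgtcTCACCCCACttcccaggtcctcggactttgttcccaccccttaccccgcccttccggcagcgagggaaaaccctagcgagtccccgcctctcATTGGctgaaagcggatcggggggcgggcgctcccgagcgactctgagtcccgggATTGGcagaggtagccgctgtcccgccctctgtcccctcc
Lss: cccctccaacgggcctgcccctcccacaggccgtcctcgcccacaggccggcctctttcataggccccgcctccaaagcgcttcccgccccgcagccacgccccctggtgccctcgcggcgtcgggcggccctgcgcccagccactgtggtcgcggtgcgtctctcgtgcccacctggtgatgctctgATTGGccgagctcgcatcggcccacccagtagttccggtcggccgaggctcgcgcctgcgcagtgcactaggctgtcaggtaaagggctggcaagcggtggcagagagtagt
Hsd17b7: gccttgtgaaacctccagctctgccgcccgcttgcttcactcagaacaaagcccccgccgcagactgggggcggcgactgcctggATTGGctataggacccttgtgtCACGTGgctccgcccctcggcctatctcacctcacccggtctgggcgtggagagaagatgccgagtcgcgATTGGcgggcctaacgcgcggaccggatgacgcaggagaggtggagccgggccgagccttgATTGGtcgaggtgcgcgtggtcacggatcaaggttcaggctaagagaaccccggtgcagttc
Dhcr7: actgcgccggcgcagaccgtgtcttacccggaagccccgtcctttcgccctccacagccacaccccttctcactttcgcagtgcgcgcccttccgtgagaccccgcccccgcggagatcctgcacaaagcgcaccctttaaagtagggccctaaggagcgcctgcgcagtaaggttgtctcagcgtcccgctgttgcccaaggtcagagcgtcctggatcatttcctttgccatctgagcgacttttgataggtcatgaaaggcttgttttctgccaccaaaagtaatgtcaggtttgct
Insig1: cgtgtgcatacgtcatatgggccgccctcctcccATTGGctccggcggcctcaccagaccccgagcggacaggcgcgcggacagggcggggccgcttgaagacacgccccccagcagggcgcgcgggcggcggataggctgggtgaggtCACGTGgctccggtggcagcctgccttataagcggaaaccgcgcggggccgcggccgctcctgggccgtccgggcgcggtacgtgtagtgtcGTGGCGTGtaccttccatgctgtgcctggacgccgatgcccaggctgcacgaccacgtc
Insig2: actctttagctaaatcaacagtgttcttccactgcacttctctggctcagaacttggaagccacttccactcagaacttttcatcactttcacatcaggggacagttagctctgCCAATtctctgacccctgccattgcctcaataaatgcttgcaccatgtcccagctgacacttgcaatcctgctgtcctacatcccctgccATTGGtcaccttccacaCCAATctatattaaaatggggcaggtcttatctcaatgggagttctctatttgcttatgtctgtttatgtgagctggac

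In Hmgcs1 the SREBP site lay at −137 to −129 from the start, counted with the start base as 1, between NF-Y boxes that begin at −176 and −45. The Hsd17b7 window held 3 NF-Y boxes and 1 E-box. In Insig1 the SREBP core lay at −9 to −2 on the reverse strand, with 1 NF-Y box and 1 E-box farther out. Lss had 1 NF-Y box, and the Insig2 window printed here, of the gene whose RNA differed in the opposite direction, had 3. Windows 2 and 3 listed for Insig2 held Sp1 boxes but none of the capitalised motifs, so its NF-Y boxes depend on the window used. The Dhcr7 window printed here held none of the capitalised motifs, while the third window listed for this gene held NF-Y boxes at −85 and −49.

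Of the 29 members, 22 had a promoter window in the RefSeq table. These include Acat2, Soat1 and Nr1h2, whose RNA levels were not analysed. The NF-Y box was present in 15 of these 22 (68.2%), against 38.0% of the 9022 tested genes with a window and 37.9% of all 27025 genes. It was found in 11 of 13 synthesis enzymes and in 0 of 4 promoters of the LXR and efflux group. The Sp1 box was in 17 of 22 members (77.3%), against 64.0% of tested genes and 35.9% of all genes. The E-box was in 4 of 22 (18.2%), against 10.4% and 7.24%, and those 4 were Hsd17b7, Abca1, Insig1 and Scap. The SREBP site was in 1 of 22 (4.55%), against 0.964% and 1.22%, and its core, which every full site contains, in 3 of 22 (13.6%), against 5.86% and 6.12%. These shares describe letters within 300 bases and were not tested, and a match is not a measured binding site.

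**Figure D1:**
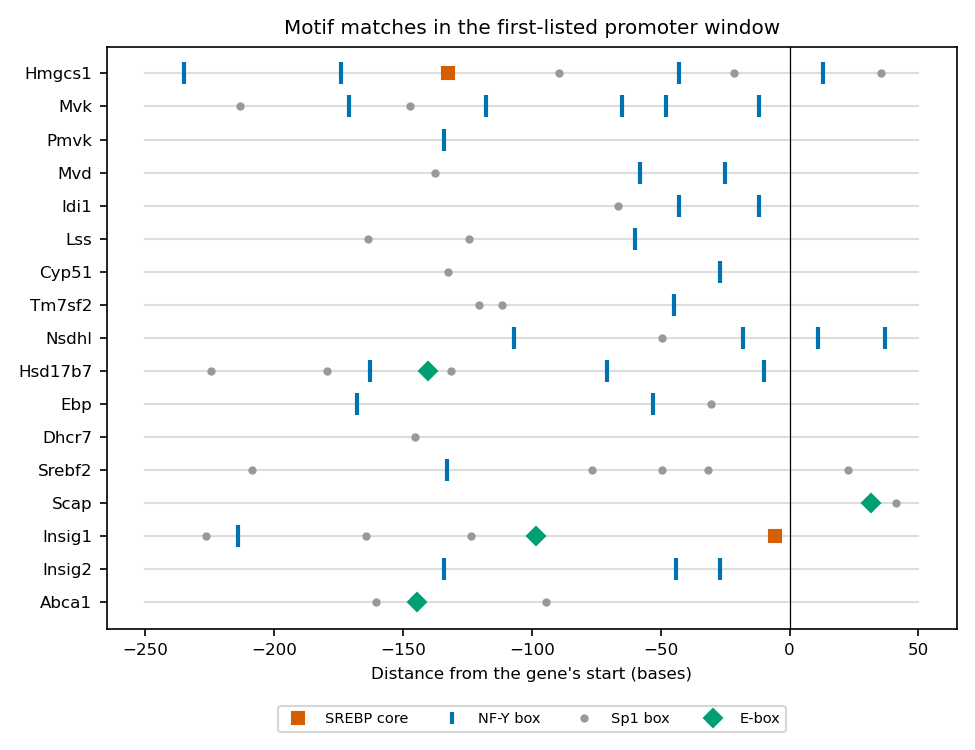
Motif matches in the first-listed promoter window of the measured members that have at least 1 match, with distance from the gene's start in bases on the horizontal axis. Each line is 1 window from 250 bases before to 50 bases after the start; the only orange squares, the SREBP core, are in Hmgcs1 and Insig1, and blue bars, the NF-Y box, recur in most of the synthesis enzymes.

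Levels are log2 intensities of a probe set, and differences are log2 differences unless given as a fold. Probe sets differ in brightness per transcript, so levels are compared between arrays and not between genes. The median intensity over 35556 probe sets was 51.1 to 52.2 on the 4 arrays. Cd1d1, the deleted gene, stood at 11.80 on each wild type array and at 3.74 and 3.98 on the KO arrays, as labelled. Adipocyte markers were bright on every array, the dimmest of 14 being at 9.39. Other tissue was present unevenly: the summed intensity of 16 epididymis and testis genes was 14525 on WT-LF and 735 to 1848 on the others, and that of 7 smooth muscle genes was 8841 on KO-1 and 4526 to 4796 on the others. The epididymis and testis sum hides differences within the KO pair. Of the 11 genes of that list tested, 6 were at least 1.5-fold higher on KO-2 than on KO-1 and 3 were lower. The shares over all tested genes were 14.8% and 4.45%. Adam7 measured 9.35 on WT-LF, 3.60 on WT-HF, 3.68 on KO-1 and 8.71 on KO-2, and Prm1 8.51, 8.63, 9.98 and 7.36. In such whole-tissue RNA, fewer cells of a type and less RNA per cell cannot be told apart. Mesothelial markers (5 genes) had a median difference of −0.21 between the wild type arrays and 1.0 between the KO arrays. The corresponding medians were −0.14 and −0.01 for 6 endothelial markers and 0.13 and 0.36 for 5 progenitor and fibroblast markers. Of the steroidogenic cell markers, 1 (Cyp17a1) passed the filter and 4 were measured below it.

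Several late sterol-synthesis enzymes and Insig1 had more RNA on the WT-HF array than on the WT-LF array. Of the uptake and transport members 0 of 3, and of the LXR and efflux members 0 of 4, were 1.5-fold apart. Over all tested genes 7.72% were that much higher and 3.82% lower, so counts of 0 among so few genes do not set these groups apart. Their median differences were 0.35 and 0.13. With 1 array on each diet there is no test, and members are counted by size, at 1.5-fold or more. Hmgcs1, Lss, Hsd17b7, Dhcr7 and Insig1 were that much higher on WT-HF, which is 5 of 26 members (19.2%) against 7.72% of all tested genes. No member was that much lower (0 of 26, against 3.82% of all tested genes). The median difference of the members was 0.35, against 0.05 over all tested genes, and 21 of 26 were above 0. What is called a diet difference, or a difference between diets, is thus that of 1 array from 1 other. These arrays also differed in the summed epididymis and testis signal, 14525 on WT-LF and 735 on WT-HF. The part of that tissue in the members' differences was not tested.

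The KO arrays, of the same group, also differed from each other, in some genes of sterol synthesis as in many other genes. KO-2 was at least 1.5-fold higher than KO-1 in Lss, Cyp51, Nsdhl, Hsd17b7, Dhcr7 and Insig1, which is 6 of 26 members (23.1%) against 14.8% of all tested genes. No member was that much lower (0 of 26, against 4.45%). The median difference of the members was 0.23, against 0.14 over all tested genes, so the members as a whole were only 0.08 above the general difference between these arrays. That median came to 0.14 with centred arrays and to 0.088 with quantile normalization. The wild type pair and the KO pair share no array. Lss, Hsd17b7, Dhcr7 and Insig1 passed 1.5-fold in both (4 of 26, 15.4%, against 6.02% of all tested genes).

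**Figure D2:**
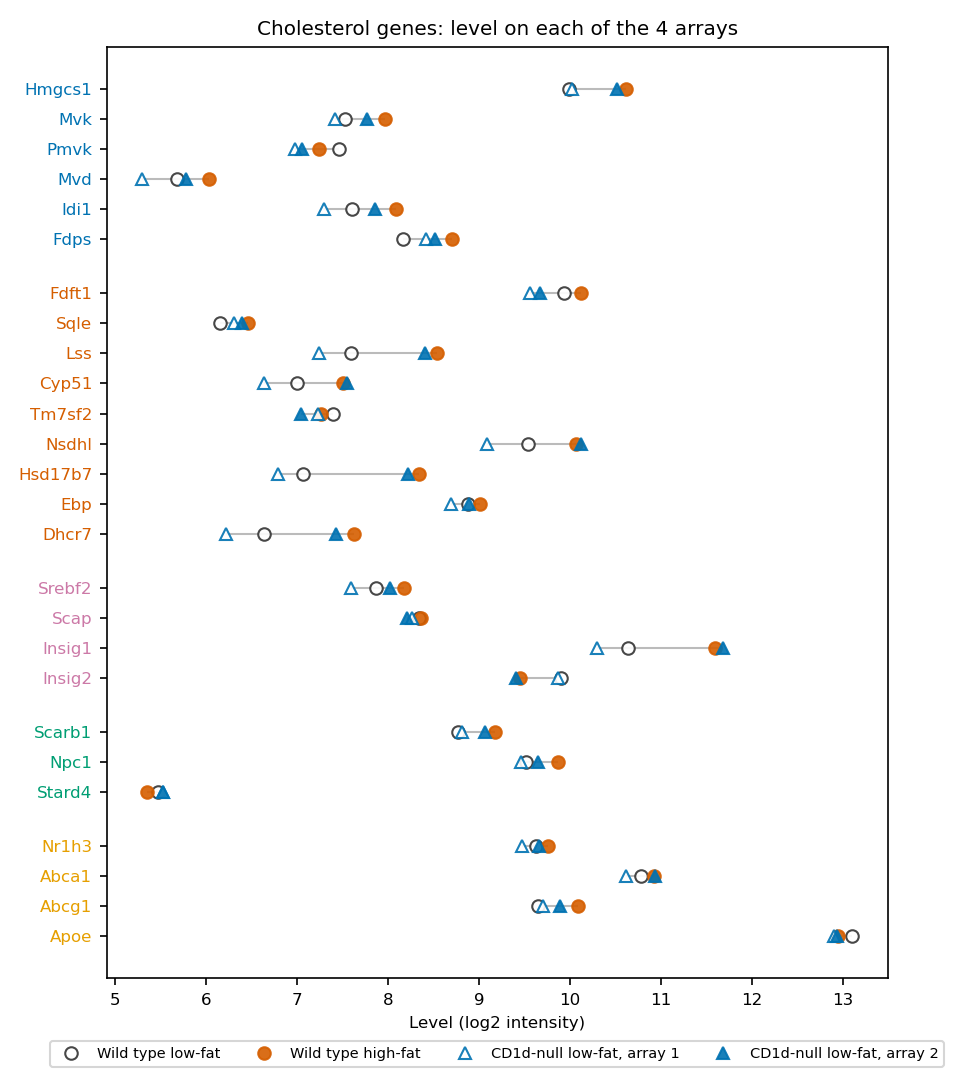
Level of each measured cholesterol gene on each array, as log2 intensity, grouped from top to bottom into mevalonate steps, squalene and sterol steps, SREBP control, uptake and transport, and LXR and efflux; CD1d-null arrays 1 and 2 are KO-1 and KO-2. WT-HF and KO-2 lie together at the right and WT-LF and KO-1 at the left for Lss, Cyp51, Nsdhl, Hsd17b7, Dhcr7 and Insig1, and the order is turned for Insig2.

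The mevalonate steps, at the start of the pathway, differed moderately. Hmgcs1, which joins acetyl groups into HMG-CoA (probe set 10412466), measured 9.98 on WT-LF, 10.61 on WT-HF, 10.02 on KO-1 and 10.51 on KO-2. It was high on WT-HF and on KO-2, low on the other arrays, and the KO arrays lay between the wild type ones. The diet difference was 0.63, or 1.54-fold, and KO-2 exceeded KO-1 by 0.49.

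Idi1, the isomerase that readies isopentenyl units for joining, measured 7.60, 8.09, 7.30 and 7.86 in the same order of arrays. Its differences were 0.49 between the wild type arrays and 0.55 between the KO arrays, under 1.5-fold. A second, dimmer Idi1 probe set gave 0.68 and 0.64, past 1.5-fold, so this gene's call depends on the probe set.

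Mvk, which phosphorylates mevalonate, measured 7.53, 7.96, 7.42 and 7.77. Mvd, which removes the carboxyl group in the last step to isopentenyl diphosphate, measured 5.68, 6.03, 5.30 and 5.78 and was dimmer than the array median on 2 arrays. For these enzymes too WT-HF was the highest and KO-1 the lowest.

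Fdps, which builds farnesyl diphosphate, measured 8.16, 8.70, 8.41 and 8.51, so that its KO arrays lay close together, 0.10 apart, above WT-LF and below WT-HF. Pmvk, the next kinase after Mvk, was the exception among these 6 genes, at 7.46, 7.24, 6.97 and 7.05, highest on WT-LF and low on each KO array. The median of the 6 mevalonate genes was 0.46 between the wild type arrays and 0.42 between the KO arrays, or 0.41 and 0.27 above the medians of all tested genes.

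The sterol steps held the largest difference of any member, that of Hsd17b7. Hsd17b7, a sterol ketone reductase of the late pathway (probe set 10359917), measured 7.06 on WT-LF, 8.34 on WT-HF, 6.80 on KO-1 and 8.22 on KO-2. WT-HF and KO-2 were more than 1 log2 unit above the other arrays. WT-HF was 2.42-fold above WT-LF, and KO-2 was 2.69-fold above KO-1.

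Dhcr7, the reductase that yields cholesterol from its direct precursor (probe set 10559312), measured 6.63, 7.63, 6.22 and 7.43, a difference of 1.99-fold between the wild type arrays and 2.32-fold between the KO arrays. Lss, which folds squalene epoxide into lanosterol (probe set 10364194), measured 7.59, 8.54, 7.24 and 8.41, or 1.93-fold and 2.25-fold. In each the same arrays were high.

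Cyp51, the lanosterol demethylase (probe set 10527920), measured 7.0, 7.51, 6.64 and 7.54. Nsdhl, which takes part in removing methyl groups from the sterol ring (probe set 10600082), measured 9.54, 10.06, 9.09 and 10.13. These differed less between diets, by 1.42-fold and 1.44-fold, than between the KO arrays, by 1.87-fold and 2.05-fold, and on KO-2 they were level with WT-HF.

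The other sterol-step genes differed less or in another way. Fdft1, the squalene synthase, measured 9.93, 10.12, 9.56 and 9.67, lower on each KO array than on each wild type array. Sqle, the squalene epoxidase, measured 6.15, 6.47, 6.31 and 6.39.

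Ebp, a sterol isomerase, measured 8.87, 9.01, 8.69 and 8.89, and Tm7sf2, a sterol reductase, 7.40, 7.27, 7.23 and 7.04. Tm7sf2 was thus lower on WT-HF by 0.14 and lower on KO-2 by 0.19, against the direction of the other 8 genes. The median of the 9 sterol-step genes was 0.50 between the wild type arrays and 0.90 between the KO arrays, or 0.45 and 0.76 above all tested genes. At 1.5-fold, 3 of the 9 were higher on WT-HF and 5 on KO-2, against 7.72% and 14.8% of all tested genes.

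Among the control genes, the Insig pair went opposite ways. Insig1 (probe set 10520362) measured 10.64 on WT-LF, 11.59 on WT-HF, 10.29 on KO-1 and 11.68 on KO-2, which is 1.93-fold between diets and 2.62-fold between the KO arrays. Insig2 (probe set 10357280), whose product also anchors Scap, measured 9.90, 9.45, 9.87 and 9.41. It was 1.37-fold higher on WT-LF than on WT-HF and 1.37-fold higher on KO-1 than on KO-2, the largest difference downward among the members in either pair.

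Srebf2, the gene of SREBP-2, measured 7.87, 8.18, 7.60 and 8.03, so that it followed the enzymes with differences of 0.31 and 0.43. Scap measured 8.34, 8.36, 8.26 and 8.21, with differences of 0.02 and −0.05. Since the members of this group oppose each other, its median of 0.17 between the wild type arrays and 0.19 between the KO arrays describes no gene in it.

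The 3 uptake and transport members differed by less than 1.5-fold between any arrays compared here. Scarb1, the HDL receptor that takes up cholesteryl esters, measured 8.77, 9.17, 8.81 and 9.07. Npc1, which carries cholesterol out of lysosomes, measured 9.51, 9.87, 9.46 and 9.65. Both were highest on WT-HF, by 0.41 and 0.35, with KO-2 above KO-1 by 0.26 and 0.19.

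Stard4, a carrier between membranes that is an SREBP target in other cells, measured 5.48, 5.35, 5.53 and 5.53. It was below the median intensity of every array, so its flat values say little. The median of these 3 genes was 0.35 between the wild type arrays and 0.19 between the KO arrays.

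The LXR and efflux genes differed little. Abca1, the exporter to lipid-poor apolipoproteins, measured 10.78, 10.92, 10.62 and 10.94. Nr1h3, the gene of LXRα, measured 9.63, 9.76, 9.47 and 9.66. Their differences between diets were 0.14 and 0.13, close to the median of all tested genes.

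Abcg1, the exporter to HDL, was higher on WT-HF, with 9.65, 10.08, 9.70 and 9.89 and a diet difference of 0.43. Apoe, an apolipoprotein secreted by adipocytes and macrophages, measured 13.10, 12.94, 12.90 and 12.93, highest on WT-LF. The median of the 4 genes was 0.13 and 0.19, or 0.08 and 0.05 above all tested genes. At 1.5-fold 0 of the 4 were higher or lower in either pair. Over all tested genes 7.72% were higher and 3.82% lower between the wild type arrays, and 14.8% and 4.45% between the KO arrays.

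Gene by gene, the size of the diet difference went with the size of the difference within the KO pair. Over the 26 members Pearson's r was 0.896 and Spearman's rho 0.843, and 23 had the same sign. Without Hsd17b7 and Insig2, the members farthest from the median diet difference, r was 0.85 and rho 0.801 over 24 genes. Over the 9 sterol-step genes r was 0.936 and over the 6 mevalonate genes 0.57. The relation extended beyond these genes: over all 11292 tested genes r was 0.517 and rho 0.703, with the same sign in 77.2%. Lists of other kinds had values as high, with r of 0.938 over 18 macrophage markers, 0.97 over 14 adipocyte markers and 0.909 over 15 fatty acid synthesis genes. Over 6 endothelial markers r was 0.773, and over 11 epididymis and testis genes it was −0.694. Genes are not independent replicates, and the 4 arrays were normalized together, so these values are descriptions without a test.

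**Figure D3:**
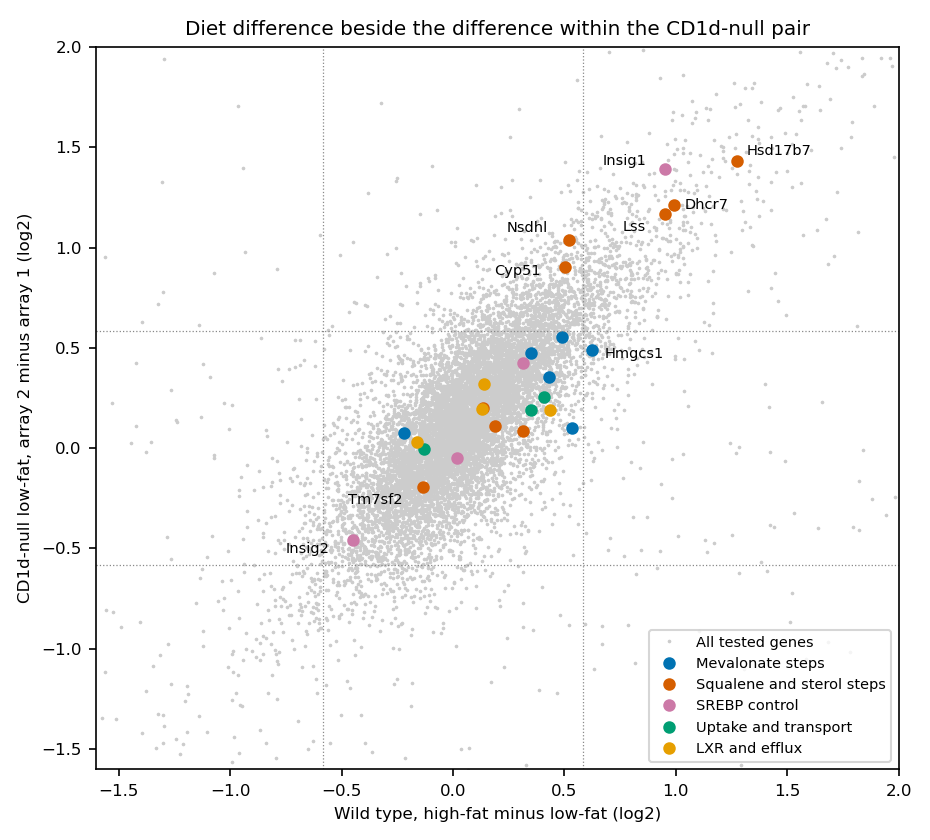
Log2 difference of WT-HF from WT-LF (horizontal) against that of KO-2 from KO-1 (vertical), with grey points for all tested genes, coloured points for the cholesterol genes by role, and dotted lines at 1.5-fold. The axes run from −1.6 to 2.0, so grey points beyond them are not drawn; Hsd17b7, Dhcr7, Lss and Insig1 lie at the upper right and Insig2 at the lower left.

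Macrophage markers differed along with these genes. The 18 macrophage markers had a median difference of 0.72 between the wild type arrays, with 11 at least 1.5-fold higher and 0 lower, and of 0.88 between the KO arrays, with 13 higher and 0 lower. In the same pairs, 7.72% and 14.8% of all tested genes were that much higher, and 3.82% and 4.45% lower. The summed intensity of the 18 markers was 19281 on WT-LF, 33120 on WT-HF, 15821 on KO-1 and 29609 on KO-2. Adgre1, which encodes F4/80, measured 8.83, 10.22, 8.23 and 9.95. All 18 passed the filter on mean level, but the dimmest, Aif1, at 5.43, 5.76, 4.99 and 5.63, was below the array median on each array except WT-HF.

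Genes of lipid-laden macrophages had larger medians still. Of 11 tested, 8 were higher on WT-HF and 7 on KO-2, with medians of 1.0 and 1.15 and summed intensities of 14227, 28112, 12343 and 24335. Trem2 measured 6.86, 9.94, 6.52 and 9.53. The 14 adipocyte markers summed to 85196, 89073, 85342 and 88736, with medians of −0.06 and 0.01 and 2 genes at least 1.5-fold higher in each pair. For the counts of both lists, the shares over all tested genes were 7.72% on WT-HF and 14.8% on KO-2. The part of macrophage RNA in the levels of the cholesterol genes was not tested. Epididymis and testis genes, by contrast, had 0 of 11 tested genes with the same sign in the wild type pair and the KO pair.

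**Figure D4:**
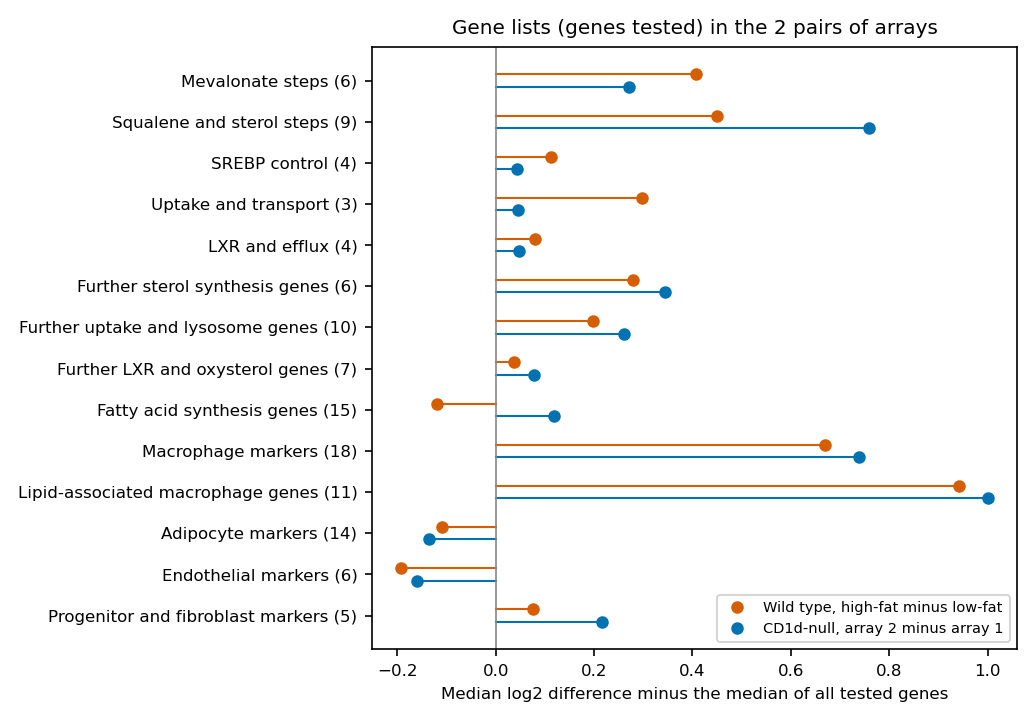
Median log2 difference of each gene list minus the median of all tested genes, for WT-HF minus WT-LF (orange) and KO-2 minus KO-1 (blue), with the number of genes tested in parentheses. The sterol steps stand at 0.45 and 0.76, the LXR and efflux genes at 0.08 and 0.05, and the macrophage markers at 0.67 and 0.74.

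Lack of CD1d was compared on the low-fat diet, where it asks whether loss of NKT cells alters cholesterol genes of lean fat. None of the 26 members passed limma's test (Benjamini-Hochberg adjusted p under 0.05 over all tested genes), against 0.0443% of all tested genes, which is 5 genes, all lower: Cd1d1 and the epididymal genes Epp13, Lcn5, Spint4 and Spint5, the last 4 named after their values were seen. The part of epididymal tissue on WT-LF in the members' levels was not tested. No member had an unadjusted p under 0.05 either, while 92 of all tested genes did, and every member's adjusted p was 1. The median difference of the members was 0.05, against −0.09 over all tested genes.

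The KO arrays gave unlike answers for the genes that differed most between them. Insig1 was 0.35 below WT-LF on KO-1 and 1.04 above it on KO-2, a mean difference of 0.35 ± 0.59 (limma SE, 2 arrays against 1). Hsd17b7 was at −0.27 and 1.16, with a mean of 0.45 ± 0.61 (SE). Dhcr7 was at −0.42 and 0.80, Lss at −0.35 and 0.82, and Nsdhl at −0.45 and 0.59. For these 5 genes the direction of the genotype difference turns on which KO array is used.

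By size, KO-2 was at least 1.5-fold above WT-LF in 5 of 26 members (19.2%: Lss, Nsdhl, Hsd17b7, Dhcr7 and Insig1, with Nsdhl only just past it), against 5.54% of all tested genes, and in 0 below it, against 4.6%. KO-1 had 0 of 26 members higher and 0 lower, against 1.93% and 5.02%. The members' median on KO-1 was −0.17, the same as that of all tested genes, and on KO-2 it was 0.20, which is 0.22 above that of all tested genes. Each KO array is set against the same WT-LF array here. Counted on both KO arrays together, 0 members were higher (0.584% of all tested genes) and 0 were lower (0.77%).

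Other members lay on the same side of WT-LF on each KO array. Pmvk was lower by 0.48 and 0.41, a mean of −0.45 ± 0.31 (SE), with the lowest unadjusted p of the members in this comparison. Fdft1 was lower by 0.37 and 0.26, a mean of −0.32 ± 0.31 (SE). Fdps was higher by 0.25 and 0.35, a mean of 0.30 ± 0.31 (SE). None of these differences passed the test.

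**Figure D5:**
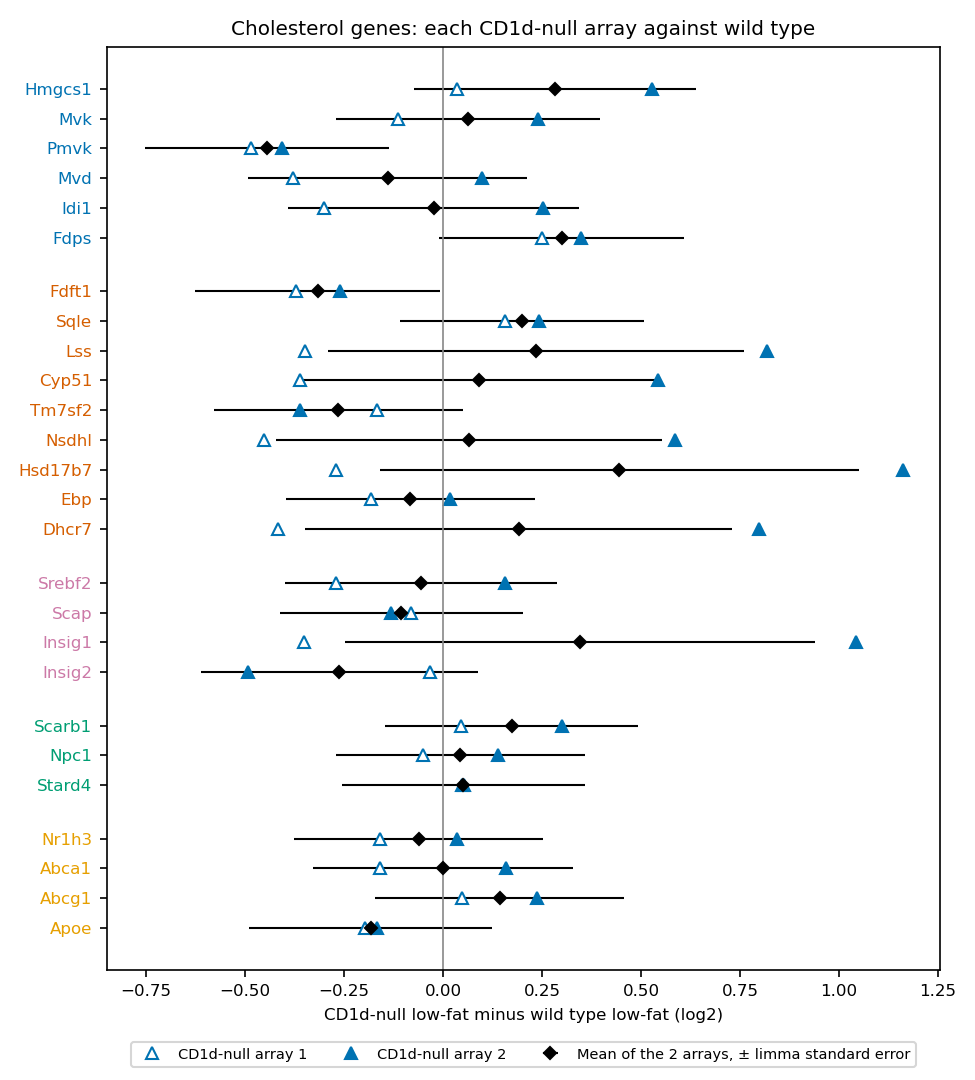
Log2 difference from WT-LF for each cholesterol gene, with triangles for the 2 KO arrays and diamonds with bars for their mean ± limma standard error. For Lss, Cyp51, Nsdhl, Hsd17b7, Dhcr7 and Insig1 the triangles lie on opposite sides of 0, and for Pmvk, Fdps, Fdft1 and Sqle they lie close together on the same side.

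Against WT-HF, genotype and diet differ together, and the same KO arrays are used again. Again 0 of 26 members passed limma's test, against 0.00886% of all tested genes, which is Cd1d1 alone, and 127 of all tested genes but no member had an unadjusted p under 0.05. Every member's adjusted p was 0.999. The member with the lowest unadjusted p was Fdft1, at −0.51 ± 0.31 (SE). The members' median was −0.30, against −0.16 over all tested genes.

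KO-2 lay close to WT-HF over the tested genes as a whole, of which 2.88% were 1.5-fold apart. Among the members 0 of 26 were, which so small a share does not set apart. The members' median difference was −0.12, against −0.08 over all tested genes. Cyp51, Nsdhl and Insig1 differed by 0.04, 0.06 and 0.09 between these arrays, which came from mice of different genotype on different diets. KO-1 was 1.5-fold apart from WT-HF in 9 of 26 members (34.6%), against 24.8% of all tested genes, and was the lower array in each: Hmgcs1, Mvd, Idi1, Lss, Cyp51, Nsdhl, Hsd17b7, Dhcr7 and Insig1.

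Other genes of the sterol pathway, in lists separate from the members, behaved partly alike. Like the members, these lists were chosen with earlier results of these data known, so they are not an independent check. Of 6 further synthesis genes tested, 2 were at least 1.5-fold higher on WT-HF and 2 on KO-2, with medians of 0.33 and 0.49. Among all tested genes 7.72% and 14.8% were that much higher. Sc5d, the desaturase just before Dhcr7, measured 10.33, 10.93, 10.16 and 10.63. Msmo1, the methyl sterol oxidase before Nsdhl, measured 7.83, 8.42, 7.59 and 8.31 and was higher in both pairs; Dhdds, named after its values were seen, was the other gene higher on KO-2.

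Of 10 further uptake and lysosomal genes, 2 were higher on WT-HF and 4 on KO-2, with medians of 0.25 and 0.41. These counts are at 1.5-fold, where the shares over all tested genes were 7.72% and 14.8%. Lipa, the lysosomal acid lipase that frees cholesterol from its esters, measured 9.91, 11.56, 9.59 and 11.28, so that it differed more than any of the 26 members. Nceh1, which hydrolyses cholesteryl esters in macrophages, measured 7.21, 9.51, 7.03 and 9.17; it, Vldlr and Lrpap1, the further genes higher on KO-2, were named after their values were seen.

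Npc2, the partner of Npc1, measured 10.88, 11.09, 10.72 and 11.01, and Mylip, an LXR target that degrades lipoprotein receptors, 8.94, 8.80, 8.95 and 8.85. Of 7 further LXR and oxysterol genes tested, 0 reached 1.5-fold between the wild type arrays and 1 did between the KO arrays (Lpcat3, named after its values were seen), with medians of 0.09 and 0.22. Among all tested genes 7.72% were higher and 3.82% lower in the wild type pair, and 14.8% and 4.45% in the KO pair. Srebf1, an LXR target that encodes SREBP-1, measured 9.35, 9.44, 9.17 and 9.40. Cyp27a1, which makes an oxysterol, measured 10.11, 9.87, 10.10 and 9.68, and Ch25h, which makes another, was below the filter at 4.72, 3.82, 4.07 and 4.54.

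The fatty acid synthesis genes, which SREBP-1 controls, were mixed. Of 15 tested, 1 was at least 1.5-fold higher on WT-HF (Scd2) and 3 were lower (Acaca, Acacb and Fads2), with a median of −0.06. Among all tested genes 7.72% were that much higher and 3.82% lower. Acaca, the cytosolic acetyl-CoA carboxylase, measured 11.31, 10.55, 10.88 and 10.43. Acly, which supplies acetyl-CoA to both fatty acid and sterol synthesis, measured 9.68, 9.57, 9.18 and 9.50. Between the KO arrays 3 were higher on KO-2 (Scd2, Me1 and Acss2) and 2 lower (Fads1 and Fads2), with a median of 0.26. The shares over all tested genes in this pair were 14.8% higher and 4.45% lower. Scd2, the Fads genes, Me1 and Acss2 were named after their values were seen.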

How the data were processed

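RNA of epididymal fat was measured on 4 whole-transcript arrays. The authors deposited 1 linear intensity per probe set and array, made with RMA and R 2.15.0, as the submitters' processing notes list; the genome build is not given in the sources used here. Tests were planned on log2 values, so deposited intensities were first converted to log2, with no further normalization. Probe sets with several symbols (1881) or none (12457) of 35556 were left out. Genes were tested where the mean log2 level was at least 5.45, the 40th percentile. KO was compared with each wild type array by limma 3.58.1 in R 4.3.3, with 3 group means, eBayes without trend, two-sided tests and Benjamini-Hochberg adjustment at 0.05. Only KO-1 and KO-2 inform the spread (1 residual and 4.62 prior degrees of freedom, prior SD 0.276), which the unreplicated WT-LF and WT-HF arrays are taken to share. Other differences were counted at 1.5-fold, or 0.585 in log2. All members were named, with set genes of the further lists. Promoter letters were searched and figures drawn in Python 3.11.15 with pandas 2.3.3 and matplotlib 3.10.9. The fit was tested on simulated data. The members and lists were chosen with earlier results of these data known.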

Additional observations from a re-analysis of the deposited data

How the results depend on the processing

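In all settings run, 0 members passed limma's test against either wild type array. Between the wild type arrays 4 to 6 members were at least 1.5-fold higher and between the KO arrays 5 to 7, under other filters, probe set rules and scalings, with Idi1 added when probe sets were averaged. At 2-fold the diet count was 1, and at a lower threshold of 0.32 in log2 it was 14, with 1 lower. Between the KO arrays 11 were higher and 1 lower at that lower threshold, and 1 member was lower on both KO arrays than on WT-LF. Quantile normalization put 1 member past 1.5-fold lower on KO-2: Insig2, at −0.59. Among all tested genes, those called against WT-LF went from 5 to 0 without a filter, 2 with a filter at the 60th percentile, and 3 with averaged probe sets or with quantile normalization. Those called against WT-HF went from 1 to 0 without a filter, 4 at the 60th percentile and 2 with centred arrays. Scaling also moved the medians of the members: between the KO arrays from 0.23 to 0.14 with centred arrays and 0.088 with quantile normalization, against WT-LF from 0.05 to 0.15 with centred arrays, and against WT-HF from −0.30 to −0.16 with centred arrays, each without a change of sign. The causes of these changes were not tested.

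Leaving out each KO array leaves no residual degree of freedom, so it gives values without a test. The members' median against WT-LF then ran from −0.17 to 0.20. Against WT-LF the ranges crossed 0 for Mvk (−0.11 to 0.24), Mvd (−0.38 to 0.10), Idi1 (−0.30 to 0.25), Lss (−0.35 to 0.82), Cyp51 (−0.36 to 0.54), Nsdhl (−0.45 to 0.59), Hsd17b7 (−0.27 to 1.16), Ebp (−0.18 to 0.017), Dhcr7 (−0.42 to 0.80), Srebf2 (−0.27 to 0.16), Insig1 (−0.35 to 1.04), Npc1 (−0.051 to 0.14), Nr1h3 (−0.16 to 0.036) and Abca1 (−0.16 to 0.16). Against WT-HF they crossed 0 for Cyp51 (−0.87 to 0.038), Nsdhl (−0.97 to 0.064), Insig1 (−1.30 to 0.090), Insig2 (−0.042 to 0.42) and Abca1 (−0.30 to 0.02).

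Mean differences near 0 changed sign in other settings. Against WT-LF Idi1 came to 0.021 with averaged probe sets, 0.020 with quantile normalization and 0.081 with centred arrays; Abca1 came to −0.0018 with quantile normalization; and Ebp, Srebf2 and Nr1h3 came to 0.022, 0.048 and 0.043 with centred arrays. Against WT-HF, centring gave 0.028 for Sqle, 0.014 for Tm7sf2, 0.018 for Scap, 0.0027 for Abca1 and 0.12 for Apoe. No paired analysis was possible because the wild type arrays carry no replicate number. With 4 arrays and no wild type replicate, precision is limited, and Stard4 and Mvd are too dim for small differences to be read.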
